A study of Mus musculus with 18 samples.

Results

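The late change under tunicamycin was measured in 6 poly(A) RNA sequencing libraries, 3 from NIH3T3 cells after 405 min of exposure and 3 after 135 min, chosen by their labels out of the 18 libraries of the series. The question was how the transcriptome moved between the middle and the last sampled time of the tunicamycin time course. NIH3T3 is an immortalized mouse fibroblast line, and the cells in both groups stably expressed DD-sfGFP, a destabilizing domain (the L106P mutant of FKBP) fused to superfolder GFP, and came from a population sorted for high GFP rather than from 1 clone. In both groups the domain was kept folded by its ligand Shield-1, so that tunicamycin exposure was the stress and its duration was the difference. The series has no untreated library at 135 or 405 min, so duration of exposure cannot be told apart from time in culture. The other libraries were untreated controls at 0 min, tunicamycin at 45 min, and heat shock at 45 and 135 min. Of these, the control and 45 min tunicamycin libraries (3 each) are used below to describe where the levels started, with no test. The labels do not say that replicates were separate cultures, so p-values measure only the spread between these libraries, which may be technical.

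Tunicamycin blocks the first step of N-linked glycan assembly, the transfer of GlcNAc-phosphate to dolichol phosphate by the enzyme that Dpagt1 encodes, and glycoproteins then misfold in the endoplasmic reticulum (ER). The unfolded protein response answers through 3 membrane sensors. ATF6 is cut in the Golgi to release a transcription factor, IRE1 (Ern1) splices Xbp1 mRNA and degrades a set of ER-bound mRNAs, and PERK (Eif2ak3) phosphorylates eIF2α, which lowers translation in general and raises that of ATF4. The first arms are known for ER chaperones, disulfide isomerases and degradation factors, and ATF4 is known for amino acid supply, tRNA charging and the factor CHOP (Ddit3).

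Between 33415592 and 48972510 reads were counted on genes in the 135 min libraries and between 57407105 and 62941548 in the 405 min libraries, so that 3 reads corresponded to 0.0477 to 0.0898 CPM (reads scaled to a common library size), a limit that covers counting error only. Replicate 1 of the 135 min group stood apart. Its log2 CPM correlated with the other two replicates at r = 0.973 and 0.972, while those 2 correlated with each other at r = 0.997, and 80.3% of the variance within groups lay on a component led by this library, whose gene scores followed transcript GC content (Spearman 0.61 across genes). The part of this library in each result was therefore measured by leaving it out, and counts without it are given as "without the divergent library". Replicate 1 of the control group also stood apart (r = 0.979 and 0.980, against 0.998 between control replicates 2 and 3). It is not in the test, but the control means and the comparisons with 9 other libraries below include it. Of 9 fibroblast markers, all were tested, and their summed level was 36679 to 47865 CPM at 135 min and 21099.7 to 22798 CPM at 405 min. In the test below, 6 of them were lower at 405 min and 0 higher. Of 14 markers of epithelium, leukocytes, endothelium, neurons, muscle and fat listed in the files, 4 had reads in every library of the series, with a summed level of 0.838 to 1.29 CPM at 135 min and 0.991 to 1.09 CPM at 405 min, and Epcam, Cd3e and Emr1 had 0 reads in all 6 libraries. Of these 4, 1 was called higher and 0 lower, and their largest log2 fold change was 1.96, at these low levels. In bulk RNA, fewer cells of a type and less RNA per cell cannot be told apart.

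The late change was broad. Of 12731 genes tested with edgeR's quasi-likelihood test, 2720 (21.4%) were higher at 405 min and 2846 (22.4%) were lower at a Benjamini-Hochberg adjusted p under 0.05, and without the divergent library 4094 were higher and 4032 lower. The median log2 fold change was 0.91 among the genes that rose and -1.04 among those that fell, against -0.01 over all genes. Changes of at least 2 on the log2 scale were called for 176 genes upward and 300 downward, whereas changes of at least 4 were called for 20 genes upward and 9 downward. The plot of all genes shows the rises of ER chaperone genes at the far right of the cloud, at high CPM, and the falls of immediate-early, matrix and sterol genes.

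**Figure D1:**
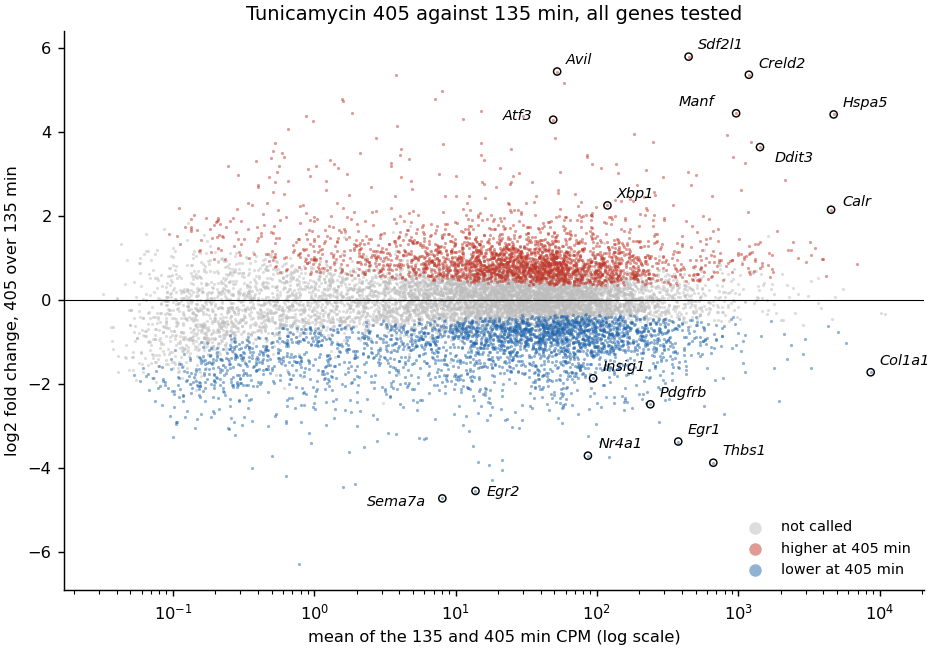
Each point is 1 of the 12731 genes tested, with the mean of its 135 and 405 min levels in CPM on a log scale across and its log2 fold change (405 over 135 min) upward; red genes were called higher, blue genes lower, grey genes neither. Creld2 (log2 fold change 5.36) and Hspa5 (4.42) sit at the upper right, and Thbs1 (-3.88), Egr1 (-3.37) and Col1a1 (-1.72) at the lower right.

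Set against the control and 45 min libraries on the same CPM scale, most of these genes were at an extreme of the whole time course at 405 min. In 2220 of all genes (17.4%) the 3 libraries at 405 min lay above all 9 others, and these included 1959 of the 2720 genes that rose (72.0%). In 2144 genes (16.8%) they lay below all 9 others, including 1982 of the 2846 that fell (69.6%). The converse, a dip or a peak at 135 min, was rarer. All 135 min libraries lay below the other 9 in 267 genes (2.1%) and above them in 462 genes (3.63%), of which 401 were among the genes that fell afterwards. These shares use the same libraries as the test, and they describe the shape of the course rather than support the calls.

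ER chaperones rose most as a group. Of 15 tested, 13 rose and 0 fell (15 rose without the divergent library), their median log2 fold change was 2.94 and their summed level went from between 3448 and 3894 CPM at 135 min to between 29036 and 29484 CPM at 405 min. Hspa5 (mm9 chr2:34627610-34632049) encodes BiP, the HSP70 of the ER lumen that binds unfolded chains and the stress sensors. Its level was 499.7, 427 and 340.3 CPM in the 135 min replicates 1 to 3 and 9267, 8833 and 9025 CPM at 405 min (log2 fold change 4.42 ± 0.21 (SE), adjusted p = 2.61e-05). The groups were far apart, and the 135 min libraries were also below every control and 45 min library (means 684 and 946 CPM). Sdf2l1 (mm9 chr16:17130231-17132476), which encodes a partner of the BiP cochaperones in the ER lumen, read 21.7, 13.9 and 11.6 CPM at 135 min and 803, 876 and 947 CPM at 405 min, a 55.6-fold difference and the largest log2 fold change among the tested genes with non-overlapping groups and at least 50 reads (log2 fold change 5.80 ± 0.28 (SE), adjusted p = 2.61e-05). Like Hspa5, it was lowest at 135 min, although replicate 1 there only just lay below the 45 min libraries. Creld2, an ER-resident protein with disulfide isomerase activity, was at 70.8, 48.3 and 50 CPM and then at 2173, 2364 and 2429 CPM (log2 fold change 5.36 ± 0.22 (SE), adjusted p = 2.61e-05). Manf, an ER-retained and secreted stress factor that binds BiP, was at 73.9, 80.6 and 99.7 CPM and then at 1558, 1829.5 and 2157 CPM (log2 fold change 4.45 ± 0.21 (SE), adjusted p = 2.61e-05). For each of these 4 genes the lowest 405 min library stood far above the highest 135 min library. Dnajb9, a J-domain cochaperone that returns BiP to IRE1, went from 2.73 ± 0.328 to 56.8 ± 7.78 CPM (mean ± SD, n = 3 here and below). The glycoprotein chaperone Calr and the HSP90 of the ER, Hsp90b1, rose with log2 fold changes of 2.15 and 2.86 from levels of 1669.9 ± 174 and 518 ± 40.6 CPM at 135 min.

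Promoter sequence was searched for the same motifs in every gene list, and the ER chaperones are described first. The ER stress element (ERSE) is CCAAT and CCACG with 9 bases between them, the arrangement recognized by the factor NF-Y together with ATF6. Searched on both strands of the stretch from 250 bases before to 50 bases after the RefSeq start site (GRCm38.p6), it was found in 6 of the 12 ER chaperone genes that had a promoter entry, against 37 of 27025 genes overall (0.137%) and 20 of 10021 tested genes (0.2%). The 6 were Creld2, Hspa5, Dnajc3, Hsp90b1 (with 2 matches), Calr and Canx, and the first 5 rose, whereas Canx did not pass the test (log2 fold change 0.55). Canx is named after its value was seen. It was called higher without the divergent library, and with an offset for GC content (adjusted p = 0.0359) or transcript length (0.0248). The edgeR exact test (0.0358) and the DESeq2 Wald test (0.0426) also called it, whereas other size factors and filters did not. ERSE-II, ATTGG and CCACG with 1 base between them, was found in Dnajb11 and in 12 genes overall (0.0444%), and the TGACGTGG core of XBP1 and ATF6 sites in none of the 12 and in 0.714% overall. ERSE was not particular to the chaperones. It was also found in 2 of 12 disulfide isomerases and ER oxidases, 2 of 13 ER-associated degradation genes and 1 of 25 N-glycosylation genes, and in no other list. The core was most frequent among COPI and COPII genes (5 of 21, 23.8%). Of the ER chaperone genes with an ERSE match, the 3 with the largest rises are shown with 40 bases on either side of the match, in capitals, read along the gene's strand. The match began 126 bases before the start site in Creld2 (chr15:88819480-88819578, + strand), 65 before it in Hspa5 (chr2:34771985-34772083, + strand) and 105 before it in Dnajc3 (chr14:118937787-118937885, + strand), and in Creld2 it lay in the reverse orientation.
Creld2: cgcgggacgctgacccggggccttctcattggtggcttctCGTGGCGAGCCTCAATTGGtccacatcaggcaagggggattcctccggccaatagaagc
Hspa5: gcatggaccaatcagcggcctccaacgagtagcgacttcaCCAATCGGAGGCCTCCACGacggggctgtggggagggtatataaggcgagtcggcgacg
Dnajc3: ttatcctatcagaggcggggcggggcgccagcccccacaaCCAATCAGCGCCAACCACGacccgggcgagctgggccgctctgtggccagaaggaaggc
A match is a description of these letters and not evidence of binding.

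The enzymes that form disulfide bonds in the ER followed the chaperones. Of 14 disulfide isomerases and ER oxidases, 10 rose and 0 fell (12 rose without the divergent library), with a median log2 fold change of 1.5. Pdia4 (mm9 chr6:47746140-47763511), an isomerase with more thioredoxin domains than most of its family, was at 133, 185 and 186 CPM at 135 min and 2422, 2194 and 2209 CPM at 405 min (log2 fold change 3.76 ± 0.19 (SE), adjusted p = 3.19e-05). The oxidase gene Ero1lb rose by a larger factor from a low level, 1.06 ± 0.153 to 21.4 ± 2.37 CPM (log2 fold change 4.32 ± 0.20 (SE), adjusted p = 2.61e-05), while P4hb, the archetypal isomerase, rose 2.44-fold (log2 fold change 1.29 ± 0.13 (SE), adjusted p = 0.000293). All 10 genes that rose were above every other library of the time course at 405 min, as were 72.0% of all genes that rose.

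ER-associated degradation, the route by which misfolded proteins leave the ER for the proteasome, was raised in its core complex. Of 17 genes, 10 rose and 0 fell (14 rose without the divergent library), with a median log2 fold change of 0.93. Herpud1 (mm9 chr8:96910400-96919258), a membrane organizer of the HRD1 ligase complex, was at 129, 87.9 and 92.1 CPM at 135 min and 1482, 1579.9 and 1619 CPM at 405 min (log2 fold change 3.92 ± 0.20 (SE), adjusted p = 3.19e-05). It had been higher at 45 min than at 135 min (means 279 and 103 CPM), so that the late rise followed a decline. The ubiquitin ligase Syvn1 (HRD1) rose 10.6-fold, its partner Sel1l 7.91-fold, the channel subunit Derl1 4.6-fold and the mannosidase-like Edem1 4.68-fold, with adjusted p values between 3.19e-05 and 0.000171.

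Genes of the stress sensors themselves were also among those that rose. Of 10 sensors and membrane-bound factors, 6 rose and 0 fell, with a median log2 fold change of 0.78; without the divergent library 7 rose and 2 fell. Xbp1 (mm9 chr11:5420970-5425875) was at 36.7, 45.2 and 41.7 CPM at 135 min and 191, 188 and 210.0 CPM at 405 min (log2 fold change 2.25 ± 0.14 (SE), adjusted p = 4.82e-05), and gene counts do not separate its spliced from its unspliced mRNA. Eif2ak3 (PERK) was at 25.9, 27.7 and 30.9 and then 105, 89.6 and 80.5 CPM (log2 fold change 1.70 ± 0.15 (SE), adjusted p = 0.000174). Atf6 was at 43.2, 90.5 and 93.2 and then 217, 155 and 170.2 CPM (log2 fold change 1.26 ± 0.29 (SE), adjusted p = 0.011), with the divergent library lowest, and the ER-bound factors Creb3 and Creb3l2 rose 2.14-fold and 2.14-fold. Ern1 (IRE1) was at 24, 23.4 and 23.3 CPM and then 34.7, 30.9 and 32.7 CPM (log2 fold change 0.47 ± 0.13 (SE), adjusted p = 0.0179), without overlap. Its adjusted p was between 0.0543 and 0.0759 when replicate 2 or 3 at 135 min, or any 1 replicate at 405 min, was left out, and 0.00268 without the divergent library.

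The integrated stress response, the ATF4 branch, rose after a dip in several of its genes. Of 20 genes, 13 rose and 2 fell, with a median log2 fold change of 1.42 (16 and 2 without the divergent library). The transcription factor gene Ddit3 (CHOP, mm9 chr10:126727849-126733344) was at 292, 177 and 165 CPM at 135 min and 2159, 2873 and 2887 CPM at 405 min (log2 fold change 3.64 ± 0.28 (SE), adjusted p = 9.87e-05). Atf3 (mm9 chr1:192994176-193007212), a stress-induced factor of the same family as ATF4, was at 5.62, 3.88 and 4.81 and then 93.6, 95.4 and 91.3 CPM (log2 fold change 4.29 ± 0.18 (SE), adjusted p = 2.61e-05). Fgf21, which encodes a secreted metabolic hormone, was at 1.65, 1.22 and 1.01 and then 22.1, 28.1 and 37.2 CPM (log2 fold change 4.49 ± 0.29 (SE), adjusted p = 5.56e-05), and the groups of all 3 genes were well separated. Each had already stood higher at 45 min than at 135 min. The means at control, 45, 135 and 405 min were 71.1, 548, 212 and 2639.9 CPM for Ddit3, 1.02, 29.9, 4.77 and 93.4 CPM for Atf3 and 0.563, 6.75, 1.29 and 29.1 CPM for Fgf21, and the plot by time shows the same dip for Trib3. Trib3, a pseudokinase that binds ATF4, and Chac1, a glutathione-degrading enzyme, rose 4.06-fold and 2.96-fold after that dip. The secreted factor Gdf15 went from 0.237 ± 0.092 to 2.35 ± 0.448 CPM (log2 fold change 3.34 ± 0.33 (SE), adjusted p = 0.000295), a rise within a low level.

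Atf4 itself rose by less. It was at 1137, 699.8 and 905 CPM at 135 min and 1379, 1431 and 1543 CPM at 405 min (log2 fold change 0.67 ± 0.19 (SE), adjusted p = 0.0264), and its adjusted p was between 0.0658 and 0.0952 when replicate 2 or 3 at 135 min, or any 1 replicate at 405 min, was left out, against 0.000277 without the divergent library. With the offset for transcript length described below, its log2 fold change was 0.32 and its adjusted p 0.157. The 2 genes that fell were Eif2ak2 and Eif2ak4, named after their values were seen, which encode the eIF2α kinases PKR and GCN2, with log2 fold changes of -1.15 and -0.80.

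**Figure D2:**
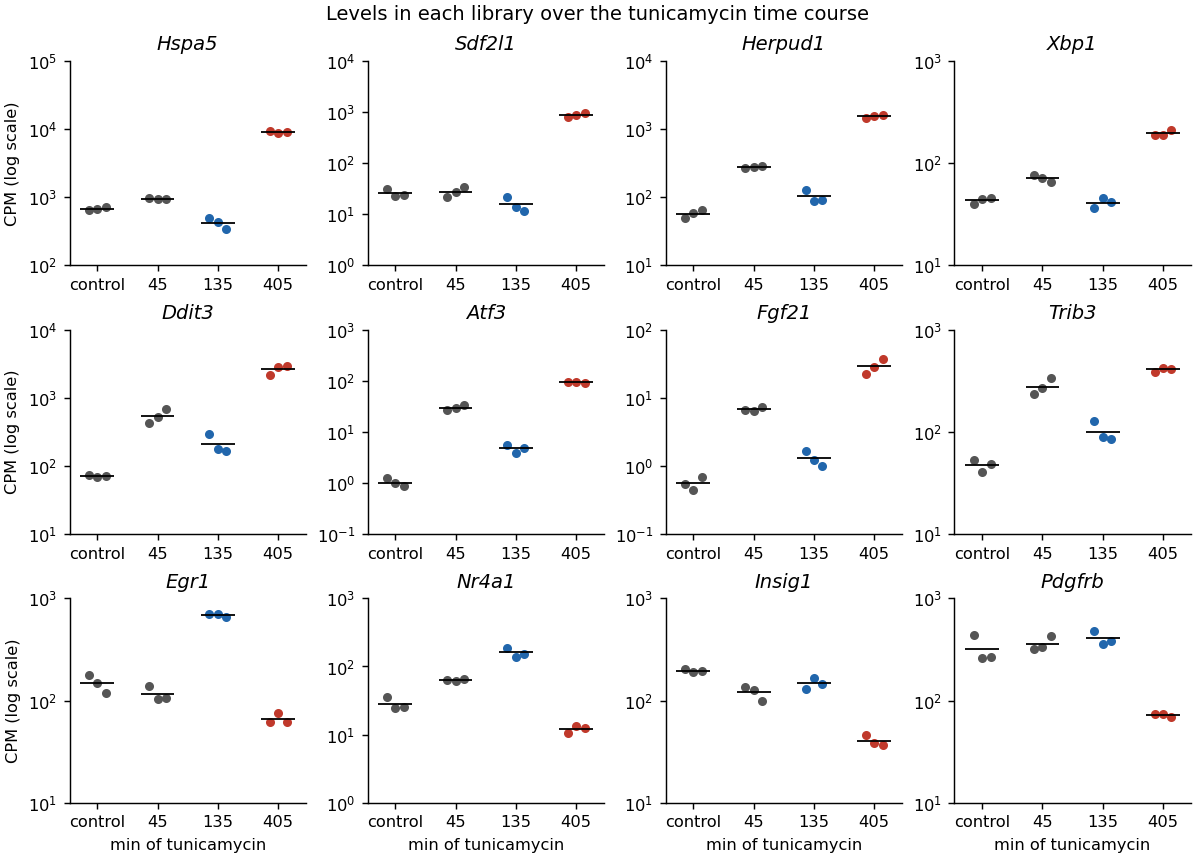
Each point is the level of 1 gene in 1 library, in CPM on a log axis, at control and after 45, 135 and 405 min of tunicamycin; bars are means of 3 libraries. Herpud1, Ddit3, Atf3, Fgf21 and Trib3 are higher at 45 than at 135 min and highest at 405 min, Egr1 and Nr4a1 peak at 135 min, and Insig1 and Pdgfrb are lowest at 405 min.

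The composite element read by C/EBP and ATF factors, TGATGNAA on either strand, was found in the promoters of 6 of 18 genes of this list with an entry (33.3%), against 4.51% of all genes and 2.8% of tested genes. The 6 were Fgf21, Atf3, Trib3, Nupr1, Vldlr and Chac1, and all 6 rose, against 13 of 20 genes in the whole list. Among all tested genes with an entry, 3.35% of those that rose and 2.56% of those that fell had a match. The share was 33.3% among amino acid transporters and 38.5% among cytosolic aminoacyl-tRNA synthetases, so it was not particular to this list. In Trib3 the match lay after the start site. The stretches around the match of the other 3 genes with the largest rises are shown with the match in capitals, which in each lay in the reverse orientation. It began 139 bases before the start site in Fgf21 (GRCm38.p6 chr7:45615582-45615669, - strand), and 110 before it in both Atf3 (chr1:191183396-191183483, - strand) and Nupr1 (chr7:126625533-126625620, - strand).
Fgf21: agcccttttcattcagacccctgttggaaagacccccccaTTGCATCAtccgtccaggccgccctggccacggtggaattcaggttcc
Atf3: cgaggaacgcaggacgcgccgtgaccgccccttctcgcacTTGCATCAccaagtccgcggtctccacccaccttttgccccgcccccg
Nupr1: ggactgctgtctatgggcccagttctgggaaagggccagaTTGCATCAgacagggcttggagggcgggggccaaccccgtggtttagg
The 8 letters TTGCATCA were the same in all 3, which the search itself required at every base except the free N.

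Amino acid supply rose along with the ATF4 branch. Of 14 genes of serine, asparagine, one-carbon and related synthesis, 12 rose and 1 fell, with a median log2 fold change of 1.21 (also 12 and 1 without the divergent library). Cth, which makes cysteine from cystathionine, was at 3.79, 7.48 and 7.33 CPM at 135 min and 53.7, 47.6 and 50.1 CPM at 405 min (log2 fold change 3.02 ± 0.27 (SE), adjusted p = 0.000171). Psph, the last enzyme of serine synthesis, rose 5.34-fold, Pycr1, the last of proline synthesis, 3.93-fold and Mthfd2, a mitochondrial folate enzyme, 2.39-fold. Asns (asparagine synthetase) was at 92.9, 172 and 138 and then 346, 305 and 333 CPM (log2 fold change 1.29 ± 0.22 (SE), adjusted p = 0.00292), with the divergent library lowest. The gene that fell was Mthfd1 (-0.53), a cytosolic folate enzyme named after its value was seen, whose adjusted p was 0.0574 and 0.072 without replicates 2 and 3 at 405 min.

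Of 13 amino acid transporters, 9 rose and 0 fell, with a median log2 fold change of 0.81 (10 and 1 without the divergent library). Slc3a2, the shared heavy chain of several exchangers, was at 545, 391 and 402 CPM and then 1898, 1953 and 1828 CPM (log2 fold change 2.09 ± 0.18 (SE), adjusted p = 0.000142), and the cystine importer Slc7a11 and the glycine transporter Slc6a9 rose 4.04-fold and 3.98-fold. Of 20 cytosolic aminoacyl-tRNA synthetases, 9 rose and 1 fell (13 and 1 without the divergent library), with a median of 0.61. Wars, the tryptophanyl enzyme, rose most, from 73.9 ± 6.96 to 437 ± 30.4 CPM (log2 fold change 2.56 ± 0.14 (SE), adjusted p = 3.25e-05), and Nars and Yars, which charge the tRNAs of asparagine and tyrosine, rose 2.64-fold and 2.21-fold. The gene that fell was Mars (-0.59), the methionyl enzyme, also named after its value was seen, whose adjusted p was 0.0975 and 0.0927 without replicates 2 and 3 at 405 min.

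Entry into the ER and glycan assembly rose broadly at smaller factors. Of 23 genes of the translocon, the signal recognition particle and signal peptidase, 21 rose and 0 fell (the same counts without the divergent library), with a median log2 fold change of 1.04. In 19 of the 23 all 405 min libraries lay above the other 9, against 17.4% of all genes and 72.0% of those that rose. The signal peptidase subunits Sec11c, Sec11a and Spcs2 rose 5.56-fold, 3.7-fold and 3.33-fold. Of 28 N-glycosylation genes, 17 rose and 0 fell, with a median of 0.75 (19 and 1 without the divergent library). Dpagt1, whose product tunicamycin inhibits, was at 17.3, 39.6 and 38.6 CPM at 135 min and 95, 79.1 and 85.7 CPM at 405 min (log2 fold change 1.44 ± 0.30 (SE), adjusted p = 0.0066), without overlap and with the divergent library lowest. Alg2, a mannosyltransferase of the same pathway, rose 3.61-fold and Rpn1, a subunit of oligosaccharyltransferase, 3.41-fold. Of 22 genes of the COPI and COPII coats, which carry cargo between the ER and the Golgi, 6 rose and 2 fell, against 21.4% and 22.4% of all genes, and 10 rose and 4 fell without the divergent library. Sec23b rose 2.87-fold and Sec24d 1.94-fold, while their relative Sec24b fell (log2 fold change -0.93).

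**Figure D3:**
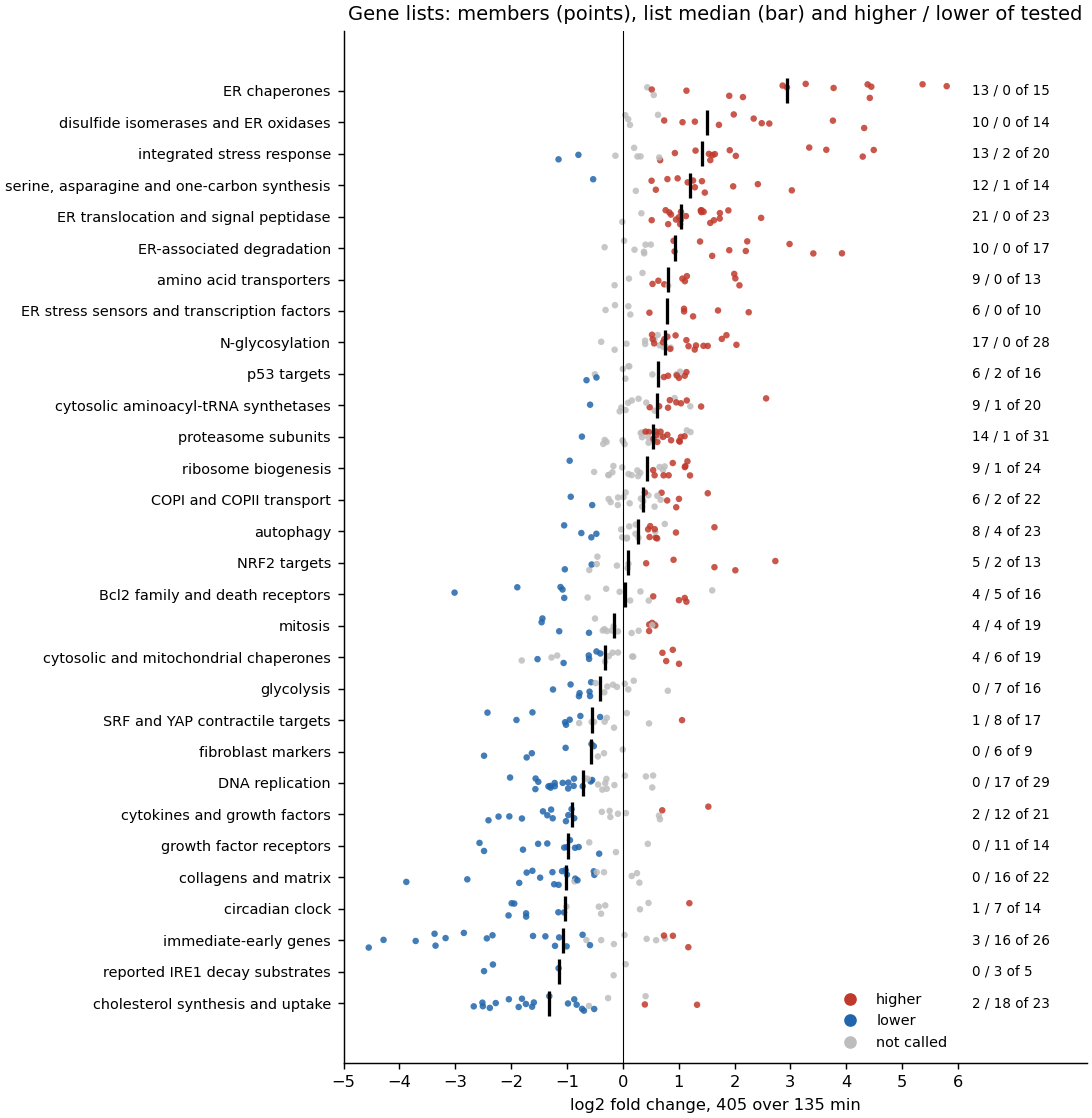
Each row is 1 gene list with at least 5 tested members, ordered by its median log2 fold change (405 over 135 min, black bar); each point is 1 gene, red if called higher, blue if lower, grey if neither, and the numbers at the right give higher / lower of tested. ER chaperones are at the top (median 2.94, 13 of 15 higher) and cholesterol synthesis at the bottom (median -1.32, 18 of 23 lower).

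Immediate-early genes, which growth factor signals induce within minutes, went the other way. Of 26 tested, 16 fell and 3 rose, with a median log2 fold change of -1.07, and without the divergent library 17 fell and 6 rose. Egr1, a zinc finger factor, was at 702, 704 and 653 CPM at 135 min and 62.2, 75.1 and 61.7 CPM at 405 min (log2 fold change -3.37 ± 0.15 (SE), adjusted p = 2.61e-05). Its relatives Egr2 (mm9 chr10:67000617-67004936) and Egr3 fell further. Egr2 went from 27.5, 26.9 and 25.2 CPM to 1.09, 1.26 and 1.05 CPM (log2 fold change -4.55 ± 0.17 (SE), adjusted p = 2.61e-05), and Egr3 from 41.4, 32.5 and 29.4 CPM to 1.56, 1.75 and 2 CPM (log2 fold change -4.28 ± 0.21 (SE), adjusted p = 2.61e-05). The orphan nuclear receptor gene Nr4a1 (mm9 chr15:101097277-101105223) was at 189, 139 and 154 and then at 10.7, 13.6 and 12.5 CPM (log2 fold change -3.71 ± 0.18 (SE), adjusted p = 2.61e-05). No value of these 4 genes overlapped between the groups. Each was highest at 135 min and below its control level at 405 min. The means at control, 45, 135 and 405 min were 148, 116, 686 and 66.3 CPM for Egr1, 5.12, 6.08, 26.5 and 1.13 CPM for Egr2 and 28.6, 63.2, 161 and 12.3 CPM for Nr4a1. Over the list, 12 of 26 genes had all 135 min libraries above the other 9 and 10 had all 405 min libraries below them, against 3.63% and 16.8% of all genes. Dusp5, a phosphatase that inactivates ERK, fell 5.04-fold, and Nr4a3 fell 9.02-fold. The 3 genes that rose were Nr4a2, Myc and Btg2, with log2 fold changes of 1.17, 0.90 and 0.73, the first 2 named after their values were seen.

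Cholesterol synthesis fell almost throughout. Of 23 genes of cholesterol synthesis and uptake and their regulation, 18 fell and 2 rose, with a median log2 fold change of -1.32. All 405 min libraries lay below the other 9 in 18 of the 23, against 16.8% of all genes and 69.6% of those that fell. The 2 that rose were Ebp (1.33) and Fdps (0.39), sterol pathway enzymes named after their values were seen. The rise of Fdps held without the divergent library (adjusted p = 0.012), its adjusted p was between 0.0705 and 0.135 without any 1 of the others, and its sign turned with the length offset (-0.10). Insig1 (mm9 chr5:28397952-28405202), which holds the SREBP regulators in the ER, was at 129, 167 and 146 CPM at 135 min and 46.1, 38.6 and 36.8 CPM at 405 min (log2 fold change -1.87 ± 0.16 (SE), adjusted p = 0.000138). Lss, the cyclase that forms lanosterol, was at 184, 173 and 183 and then 65.3, 57.8 and 55.9 CPM (log2 fold change -1.59 ± 0.12 (SE), adjusted p = 0.000108). The groups did not overlap for either gene. The number of genes that fell was 20 without the divergent library and 11 without replicate 3 at 405 min.

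Genes for surface receptors and secreted signals fell. Of 14 growth factor receptors, 11 fell and 0 rose, with a median log2 fold change of -0.97 (12 fell without the divergent library). Pdgfrb was at 477, 355 and 384 CPM at 135 min and 74, 74 and 69.2 CPM at 405 min (log2 fold change -2.49 ± 0.15 (SE), adjusted p = 4.96e-05), and Pdgfra was at 213, 319.8 and 381 and then 57.3, 49.4 and 47.7 CPM (log2 fold change -2.57 ± 0.23 (SE), adjusted p = 0.000171). Both encode receptors for platelet-derived growth factor, a mitogen of fibroblasts, and their control means, 320.2 and 314 CPM, were near the levels at 135 min. Met, Tgfbr2 and Fgfr1, receptors for hepatocyte growth factor, TGF-β and fibroblast growth factors, fell 2.86-fold, 2.55-fold and 2.07-fold. Of 21 cytokines and growth factors tested, 12 fell and 2 rose, with a median of -0.92 (15 and 2 without the divergent library), with the smallest p for Tgfb3 (log2 fold change -2.23 ± 0.13 (SE), adjusted p = 4.79e-05). Hbegf and Cxcl12, an EGF receptor ligand and a chemokine, fell 2.7-fold and 3.5-fold.

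Pdgfrb is also 1 of 5 mRNAs described elsewhere as degraded by IRE1. In this short list 3 fell and 0 rose, with a median of -1.15 (3 and 1 without the divergent library). Scara3 (mm9 chr14:66538232-66572581), a scavenger receptor gene, was at 47.2, 68 and 65.6 CPM at 135 min and 13.7, 11.6 and 10.8 CPM at 405 min (log2 fold change -2.33 ± 0.19 (SE), adjusted p = 0.000127), and Col6a1 fell 2.22-fold. Bloc1s1, the mRNA most often used to follow this activity, was at 145, 84.3 and 68.6 CPM and then at 82, 111 and 116 CPM. Its groups overlapped and it did not pass the test (log2 fold change 0.05 ± 0.28 (SE), adjusted p = 0.898), but it was called higher without the divergent library (0.43, adjusted p = 0.0331), and the sign of its log2 fold change turned negative (-0.01 to -0.16) when any 1 of replicates 2 and 3 of either group was left out. Hgsnat did not pass either (log2 fold change -0.17).

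Most of the matrix genes tested fell, as did several targets of actin-responsive factors. Of 22 genes of collagens and matrix, 16 fell and 0 rose, with a median log2 fold change of -1.01 (19 and 1 without the divergent library). Thbs1 (mm9 chr2:117937658-117952869), the adhesive glycoprotein thrombospondin 1, was at 1172, 1310.0 and 1261 CPM at 135 min and 107, 75.6 and 71.7 CPM at 405 min (log2 fold change -3.88 ± 0.20 (SE), adjusted p = 3.19e-05). Col1a1, the main chain of type I collagen, was at 17485, 11549 and 10816 and then 3938, 4310.2 and 3830.1 CPM (log2 fold change -1.72 ± 0.23 (SE), adjusted p = 0.000909), and its fall was the largest of any gene in CPM, a scale that is not divided by transcript length. Its partner chain Col1a2 fell 2.04-fold and Col3a1 3.62-fold. Of 17 targets of SRF and YAP, factors that respond to actin tension, 8 fell and 1 rose (47.1% and 5.88%, against 22.4% and 21.4% of all genes), with a median of -0.56 (9 and 2 without the divergent library). When any 1 replicate at 405 min was left out, 5 of them fell, against 1855 to 2233 of all 12731 genes. Actb (β-actin), whose processed copies could take part of its reads, was at 6089, 5021 and 3797 CPM and then 1929.6, 1494 and 1430.3 CPM (log2 fold change -1.62 ± 0.22 (SE), adjusted p = 0.00115), Ctgf, a secreted matricellular factor, fell 3.75-fold, and Ankrd1, a muscle ankyrin repeat protein and common YAP readout, rose 2.08-fold. Myh9, the non-muscle myosin heavy chain, fell 5.29-fold.

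Most of the DNA replication genes tested fell. Of 29 replication genes, 17 fell and 0 rose, with a median log2 fold change of -0.72 (23 and 2 without the divergent library). In 17 of the 29 all 405 min libraries lay below the other 9, against 16.8% of all genes and 69.6% of those that fell. Lig1, the ligase that joins Okazaki fragments, was at 168, 189 and 182 CPM at 135 min and 49, 43 and 40.9 CPM at 405 min (log2 fold change -2.02 ± 0.13 (SE), adjusted p = 5.87e-05). The helicase subunits Mcm3, Mcm4 and Mcm5 and the helicase-associated Mcm10 fell by log2 fold changes between -1.57 and -1.29. Of 19 mitosis genes, 4 fell and 4 rose (21.1% each, against 22.4% and 21.4% of all genes), with a median of -0.17, and the counts moved to 10 and 4 without the divergent library and to 2 and 1 without replicate 2 at 135 min or replicate 2 or 3 at 405 min. Without replicate 3 at 135 min 2 fell, without replicate 1 at 405 min 2 rose, and with an offset for transcript length 2 fell and 0 rose. Cenpf, a kinetochore protein, fell 2.74-fold (log2 fold change -1.45 ± 0.25 (SE), adjusted p = 0.0027), and the kinase Plk1 rose 1.44-fold (log2 fold change 0.52 ± 0.11 (SE), adjusted p = 0.00792). Mki67 was at 109, 333 and 355 CPM and then 103, 89.7 and 100.4 CPM, so that the divergent library lay just above the 405 min group while the other 2 lay far above it. Its adjusted p was 0.0206, 3.28e-07 without that library and between 0.0634 and 0.0729 without any 1 of the others.

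Genes of cell death were called in shares not far from those of all genes. Of 16 genes of the Bcl2 family and death receptors, 4 rose and 5 fell (25% and 31.2%, against 21.4% and 22.4% of all genes), with a median log2 fold change of 0.04. The count that rose was 7 without the divergent library, and it was 2 without replicate 3 at 135 min or replicate 2 at 405 min and 1 without replicate 2 at 135 min or replicate 3 at 405 min. Bcl2l11 (BIM), a death-promoting BH3-only protein, was at 14.1, 15.7 and 17.8 CPM at 135 min and 4.14, 4.48 and 4.23 CPM at 405 min (log2 fold change -1.89 ± 0.16 (SE), adjusted p = 0.000146). Bmf, another BH3-only gene, fell from 3.55 ± 1.61 to 0.438 ± 0.0924 CPM (log2 fold change -3.01 ± 0.37 (SE), adjusted p = 0.000671), and the protective Bcl2l1 and the pore-forming Bak1 fell 2.11-fold and 2.07-fold. Bid rose 1.46-fold. Bbc3 (PUMA) was at 33.3, 15.9 and 14.6 CPM and then 32.7, 58.7 and 49 CPM (log2 fold change 1.14 ± 0.35 (SE), adjusted p = 0.0334), so that the divergent library overlapped the 405 min group, and its adjusted p was between 0.0922 and 0.113 without any 1 of 135 min replicates 2 and 3 or 405 min replicates 2 and 3. Of 16 p53 targets, 6 rose and 2 fell (37.5% and 12.5%), with a median of 0.63. Without the divergent library 10 rose and 3 fell, and 3 rose without replicate 3 at 405 min. None fell without any 1 of the other 5 libraries, with the replicate block or in the fit of all 6 groups. Zmat3 and Plk2 rose 1.75-fold and 1.95-fold.

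Chaperones outside the ER were a mixed group. Of 19 cytosolic and mitochondrial chaperones, 4 rose and 6 fell (21.1% and 31.6%, against 21.4% and 22.4% of all genes), with a median log2 fold change of -0.32 (6 and 9 without the divergent library). The number that fell was 3 without replicate 1 and 2 without replicate 2 or 3 at 405 min, and the number that rose was 2 without replicate 1 at 405 min. Hspa8, the constitutive cytosolic HSP70, was at 2979, 2996 and 3679.9 CPM at 135 min and 1640.2, 1456 and 1531 CPM at 405 min (log2 fold change -1.06 ± 0.16 (SE), adjusted p = 0.00155), and this gene has near-identical processed copies that could take part of its reads. Hsph1 (HSP110) fell 1.52-fold, whereas the mitochondrial partners Hspe1 and Hspd1 rose 2.01-fold and 1.71-fold. Of 13 NRF2 targets, 5 rose and 2 fell (38.5% and 15.4%), with a median of 0.09, and 6 fell without the divergent library. Hmox1 (heme oxygenase 1) was at 161, 102 and 104 CPM and then 738, 816 and 874 CPM (log2 fold change 2.73 ± 0.22 (SE), adjusted p = 0.000112), Sqstm1 (p62) rose 3.11-fold and Osgin1 fell 2.05-fold.

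Protein turnover and ribosome assembly rose in part. Of 31 proteasome subunits, 14 rose and 1 fell (45.2% and 3.23%, against 21.4% and 22.4% of all genes), with a median log2 fold change of 0.55. Without the divergent library 19 rose and 2 fell, and 9 or 7 rose without replicate 2 or 3 at 405 min. Psmc2, an ATPase of the base, rose 2.15-fold and Psmb6, a β subunit, 2.05-fold, while the scaffold Psmd1 fell 1.66-fold. With an offset for transcript length, chosen after the data were seen, 4 rose and 2 fell and the median was 0.10. Of all 12731 genes, 2301 rose and 2418 fell with that offset. Of 23 autophagy genes, 8 rose and 4 fell (34.8% and 17.4%, against 21.4% and 22.4% of all genes), with a median of 0.28 (10 and 4 without the divergent library). The counts were 5 and 3 without replicate 2 at 135 min, 4 and 2 without replicate 2 or 3 at 405 min, and 4 and 0 with the length offset. Gabarapl1, a protein of the autophagosome membrane, rose 1.5-fold and Ulk1, the initiating kinase, fell 1.67-fold. Of 24 ribosome biogenesis genes, 9 rose and 1 fell (37.5% and 4.17%), with a median of 0.43 (12 and 3 without the divergent library). Nip7 led the rises (log2 fold change 1.20 ± 0.13 (SE), adjusted p = 0.000359), and Polr1a, the largest subunit of RNA polymerase I, fell 1.94-fold. Rplp0, a ribosomal protein gene with many processed copies, was among the 5 largest gains in CPM. It went from 6473, 4261 and 4074 CPM to 8804, 8893 and 9288 CPM with an adjusted p of 0.014, which was between 0.0509 and 0.0551 without replicate 2 at 135 min or replicate 2 or 3 at 405 min.

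Falls outnumbered rises among clock and glycolysis genes, and in both lists at least as many genes were not called or rose as fell. Of 14 circadian clock genes, 7 fell and 1 rose (50% and 7.14%, against 22.4% and 21.4% of all genes), with a median log2 fold change of -1.03 (8 and 2 without the divergent library). The repressor gene Per2 was at 23, 14.5 and 17.4 CPM at 135 min and 4.04, 5.03 and 4.2 CPM at 405 min (log2 fold change -2.05 ± 0.22 (SE), adjusted p = 0.000359), which returned it to its control range after a rise at 45 and 135 min (control and 45 min means 4.64 and 14.9 CPM). Nr1d1 (REV-ERBα) and Tef, an output factor, fell 3.32-fold and 3.85-fold, and Cry1, the partner of PER2, rose 2.28-fold (log2 fold change 1.19 ± 0.13 (SE), adjusted p = 0.000482). Of 16 glycolysis genes, 7 fell and 0 rose (43.8% and 0%, against 22.4% and 21.4% of all genes), with a median of -0.41 (8 and 1 without the divergent library). Without replicates 1, 2 and 3 at 405 min, 4, 4 and 3 of them fell. In the same fits 2233, 1880 and 1855 of all 12731 genes fell. Hk1, a hexokinase, fell 2.38-fold.

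Several of the largest changes lay outside these groups. Avil (mm9 chr10:126437765-126458050), an actin-severing protein best known from sensory neurons, was at 2.51, 1.79 and 2.8 CPM at 135 min and 100.1, 106 and 101 CPM at 405 min (log2 fold change 5.44 ± 0.21 (SE), adjusted p = 2.61e-05). Car6 (mm9 chr4:149561125-149575244), a secreted carbonic anhydrase, was at 1.33, 3.54 and 4.64 and then 114, 105 and 122 CPM (log2 fold change 5.17 ± 0.42 (SE), adjusted p = 0.000127). Cd74, the invariant chain of MHC class II, rose from 0.177 ± 0.108 to 7.36 ± 0.746 CPM (log2 fold change 5.35 ± 0.36 (SE), adjusted p = 6.09e-05), and Atp2a3, a calcium pump of the ER, from 0.502 ± 0.194 to 13.9 ± 0.262 CPM (log2 fold change 4.78 ± 0.27 (SE), adjusted p = 3.88e-05). The rest of the 12 largest rises among the tested genes with non-overlapping groups and at least 50 reads were Dyrk4, Sh3tc2, Cyp4f40 and Arap3, with log2 fold changes between 4.45 and 4.98. Sh3tc2, Cyp4f40 and Arap3 averaged 4.67, 5 and 7 reads at 135 min, and Cd74 7.67, so counting error limits the size of these folds. Among the falls, the membrane-bound semaphorin Sema7a was at 17.2, 16.3 and 13.1 CPM and then 0.692, 0.513 and 0.545 CPM (log2 fold change -4.73 ± 0.22 (SE), adjusted p = 2.61e-05). Plau, which encodes urokinase, went from 17.6, 36 and 43.9 CPM to 2.31, 2 and 2.11 CPM (log2 fold change -3.92 ± 0.35 (SE), adjusted p = 0.000172), and Hes1, a target of Notch signalling, from 39, 21.5 and 20 CPM to 1.65, 1.7 and 2.16 CPM (log2 fold change -3.87 ± 0.31 (SE), adjusted p = 0.000117). None of these groups overlapped. Mycn, Cd300lb and Dkk3 fell by log2 fold changes between -4.38 and -3.81. Grpr also fell, from 1.2 ± 0.642 to 0.0647 ± 0.0542 CPM, but it averaged only 3.67 reads at 405 min, so its fold is not given. The nominally largest fall, in 4931406H21Rik, was measured at 4.14, 0.285 and 0.224 CPM at 135 min against 1 read in each library at 405 min, so that most of its level at 135 min came from the divergent library, and its call was lost without replicate 1 or 3 at 405 min (adjusted p = 0.0594 and 0.0527). No fold is given for counts this low.

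The direction of change varied with transcript length. Length was taken from the longest GENCODE transcript of 12431 tested genes and the genes were divided into 5 equal groups, from 291 to 1764 nt for the shortest to 4890 to 28204 nt for the longest. The median log2 fold change went from 0.49 in the shortest group through 0.23, 0.00 and -0.23 to -0.55 in the longest, and the share of genes that rose from 39.4% to 7.24%. The share that fell went from 6.55% to 45.3%. Over all these genes, which do not count as replicates, the Spearman correlation of log2 fold change was -0.42 with length and -0.08 with GC content. With a length offset the counts were 2301 higher and 2418 lower, and the medians of the ER chaperones, the integrated stress response, the immediate-early genes and the cholesterol genes were 2.79, 1.16, -1.16 and -1.29. Other lists moved more with it. The median of the clock genes was -0.67, that of collagens and matrix -0.68 with 11 falls and 1 rise, and that of the growth factor receptors -0.72 with 9 falls and 2 rises. The part of length in the results was not tested beyond this offset.

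**Figure D4:**
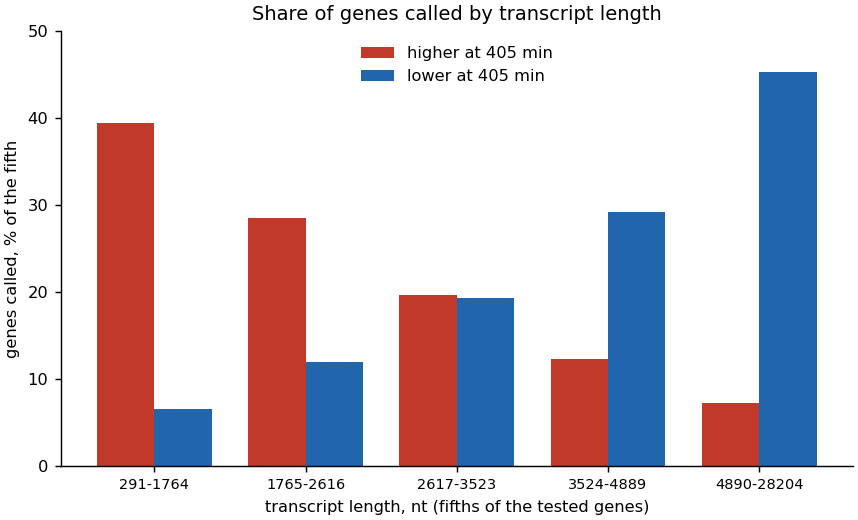
Bars give the percent of genes called higher (red) or lower (blue) at 405 min in 5 equal groups of the tested genes by transcript length in nt. The share called higher falls from 39.4% in the shortest group to 7.24% in the longest, and the share called lower rises from 6.55% to 45.3%.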

How the data were processed

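Poly(A) RNA had been sequenced on an Illumina sequencer, aligned to mm9 and counted on RefSeq genes through DNAnexus. The aligner and counter are not given in the sources used here. The methods name both a manual and an automated library protocol without saying which libraries each made. The authors deposited estimated counts per gene and library, not normalized, and these were rounded to whole numbers. RPKM and further scaled columns of the same files were not used. The quasi-likelihood test of edgeR 4.0.16 (R 4.3.3, TMM) was applied to the 6 libraries and to the 12731 genes that no library of the 18 lacked, with Benjamini-Hochberg adjustment and a threshold of 0.05. CPM values of all groups share 1 TMM scale. The steps were tested on simulated data, where in this comparison 53 of 100 genes changed 2-fold and 96 of 100 changed 4-fold were called and 9 others were called wrongly. Only 200 genes were changed there, all drawn from genes with a mean above 1 CPM, and the noise was independent between genes. These counts therefore do not cover genes at lower levels, a change as broad as the measured one or the GC-linked component shared between genes. DESeq2 1.42.0 was an alternative. The 31 gene lists (576 names, 560 in the files, 544 tested) and the comparison were chosen with earlier results of these data known. Genes named were drawn from the 12 largest rises and falls (non-overlapping groups, at least 50 reads on average in the higher group), up to 6 genes of a list with the smallest p, the 5 largest CPM changes either way, and 18 markers of the response, and any other was named for a promoter match or is said to have been named after its value was seen. Promoters were RefSeq entries of GRCm38.p6, matched by symbol. Some genes that this rule chose are not reported here.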

Additional observations from a re-analysis of the deposited data

Results flagged for a closer look

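Genes with 0 reads in any library of the series were left out of the test, and these 7476 genes held 0.0159% of the reads at 405 min. In 16 of them every 405 min library had at least 50 reads and lay above all control libraries in CPM. Most reads fell on Sspo, which encodes a large secreted glycoprotein of the brain, with 1010, 973 and 1077 reads at 405 min against 5, 3 and 6 at 135 min (mean 17.56 CPM at 405 min). The nonclassical MHC gene H2-M10.1 had 212, 210 and 249 reads at 405 min, 1, 1 and 0 at 135 min and 0 in every control (mean 3.858 CPM). Odz2, a teneurin gene (1.809 CPM), Saa3, an acute-phase gene (1.368 CPM), Pla2g2e, a secreted phospholipase (1.131 CPM), and Acox2, a peroxisomal oxidase (1.053 CPM), likewise had at most 1 read in any library at 135 min.

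The cytokine subunit gene Il23a had 113 reads in each 405 min library (1.943 CPM) and 1 to 3 at 135 min. Klf15, a zinc finger factor (3.149 CPM), and Abcb1a, a drug efflux pump (2.122 CPM), had more reads at 45 min than at 135 min, with 78, 84 and 85 against 19, 11 and 8 for Klf15. The mean at 405 min was 1.514 CPM for Dennd2d, 1.512 for Plce1, 1.437 for 1700013F07Rik, 1.166 for Cabp1 and 1.057 for Taf7l. AK129341 (1.388 CPM) and Trim69 (1.366 CPM) had reads in every tunicamycin and control library. These genes were chosen for their reads at 405 min, so their rise is a description with no test. A fit of every gene with a read in any of the 6 libraries added 3460 genes, of which 135 were higher and 101 lower.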

How the results depend on the processing

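The number of genes higher at 405 min was 2720 and of genes lower 2846. With the replicate block the counts were 1811 and 1939, and 2693 and 2728 with a GC offset as well. Same-numbered libraries deviated in opposite directions (correlations -0.48, -0.45 and -0.17). Most of this deviation (80.3% of the variance within groups) lay on the GC-linked component, so it cannot tell whether equal numbers shared a culture or batch. A minimum size of 1 on the log2 scale left 1146 and 1533. Leaving out 1 library gave 1692 to 4094 higher (most without 135 min replicate 1, fewest without 405 min replicate 3, and 1713 without 405 min replicate 2) and 1855 to 4032 lower (1880 without 405 min replicate 2). The other settings (other size factors, filters, tests, a fit of all 6 groups, GC and length offsets) gave 2206 to 3351 higher and 2299 to 3377 lower. Of 527 recomputed list medians, 60 moved by more than the spread between libraries and 7 changed sign. With the length offset, chosen after the data were seen, the log2 fold change of Bloc1s1 was -0.56 and of Fdps -0.10. It also ended the calls of Bbc3, Col1a2, Gabarapl1, Hspe1, Mki67, Plk1, Rplp0, Ulk1 and Atf4, with no change of sign. The log2 fold change of Bloc1s1 was 0.43, past the threshold, without 135 min replicate 1, was -0.05 and -0.16 without 135 min replicates 2 and 3, and -0.01 and -0.04 without 405 min replicates 2 and 3. The replicate block ended the calls of Atf4, Bbc3, Bid, Ern1, Fdps and Mki67, and the fit of all groups those of Ebp, Fdps, Hsph1 and Mki67. Canx, not called in the main test, was called higher with the GC offset, the length offset, the edgeR exact test and the DESeq2 Wald test. The causes were not tested. With 3 libraries a group, an exact permutation test of a single gene cannot go below 0.1. Genes near 3 reads a library are limited by counting error.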
